A study of Homo sapiens with 11 samples.

Results

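The mRNAs of the 4 kinases that phosphorylate the translation factor eIF2 and of the 2 regulatory subunits that direct its dephosphorylation were followed in HEK293T cells treated with the compound A8. The genes, EIF2AK1, EIF2AK2, EIF2AK3, EIF2AK4, PPP1R15A and PPP1R15B, were taken by symbol. All 6 were found among the 27671 genes of the count table, and all 6 passed the filter on low counts. The libraries comprised 3 of cells given 10 µM A8 together with ISRIB, 3 given 10 µM A8, 2 given ISRIB in DMSO vehicle and 3 given DMSO alone. The sample titles give 8 h of treatment and the treatment protocol 4 h, and the dose of ISRIB is not given in the sources used here. All groups are of 1 line, HEK293T, derived from human embryonic kidney and made to express the large T antigen of SV40.

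Separate stress sensors converge on the same residue of eIF2. EIF2AK1 encodes HRI, which senses low haem and relays mitochondrial stress, EIF2AK2 encodes PKR, which binds double-stranded RNA, EIF2AK3 encodes PERK, which spans the membrane of the endoplasmic reticulum, and EIF2AK4 encodes GCN2, which responds to scarce amino acids and stalled ribosomes. Phosphorylated eIF2 inhibits the exchange factor eIF2B, which lowers protein synthesis while ATF4 mRNA is translated, and ISRIB acts on eIF2B to relieve that block. The signal is ended by protein phosphatase 1, which is guided to eIF2 by GADD34 (PPP1R15A), a subunit induced downstream of ATF4 and CHOP, or by CReP (PPP1R15B), made constitutively. The kinases are controlled mainly as proteins, and their activity and the phosphorylation of eIF2 were not measured here.

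Promoter sequences are shown for 3 members, because each holds 1 of the short motifs searched. They are RefSeq sequences of GRCh38.p14, each from 250 bases before to 50 after the annotated start, and a sequence was at hand for 5 of the 6 members, EIF2AK1 being the other one. Capitals mark the motif found when both strands were searched.
PPP1R15A, chr19:48872171-48872470, plus strand: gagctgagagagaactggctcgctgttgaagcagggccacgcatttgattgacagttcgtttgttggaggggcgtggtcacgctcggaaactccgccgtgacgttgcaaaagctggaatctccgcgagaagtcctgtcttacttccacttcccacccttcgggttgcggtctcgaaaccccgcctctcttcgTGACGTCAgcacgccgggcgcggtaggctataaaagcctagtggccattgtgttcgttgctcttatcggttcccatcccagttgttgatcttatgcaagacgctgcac
PPP1R15B, chr1:204411768-204412067, minus strand: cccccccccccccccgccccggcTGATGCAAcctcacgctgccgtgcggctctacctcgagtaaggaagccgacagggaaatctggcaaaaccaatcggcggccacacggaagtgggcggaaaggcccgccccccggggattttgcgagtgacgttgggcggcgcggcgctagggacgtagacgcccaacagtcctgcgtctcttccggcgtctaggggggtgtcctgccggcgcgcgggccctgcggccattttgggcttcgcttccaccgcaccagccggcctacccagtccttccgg
EIF2AK2, chr2:37156931-37157230, minus strand: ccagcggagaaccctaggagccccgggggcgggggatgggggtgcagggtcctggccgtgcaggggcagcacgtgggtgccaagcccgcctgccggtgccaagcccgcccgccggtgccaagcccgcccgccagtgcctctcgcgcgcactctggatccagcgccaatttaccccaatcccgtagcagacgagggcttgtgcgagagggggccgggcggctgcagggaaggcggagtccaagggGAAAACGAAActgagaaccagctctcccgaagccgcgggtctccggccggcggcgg
In PPP1R15A the capitals are the cyclic AMP response element TGACGTCA, which begins at position -58 from the start and occurs in 1.85% of the 35116 promoters of the same length. The search for this element was added after the sequences had been seen. In PPP1R15B they are a match to the composite C/EBP-ATF element TGATGNAA, at position -227, held by 3.62% of promoters. In EIF2AK2, a known interferon-stimulated gene, they are a match to the interferon-stimulated response element (GAAA, 2 bases of any kind, GAAA) at position -6, held by 3.57%. The composite element was not found in these letters in the window of PPP1R15A, and the endoplasmic reticulum stress element (CCAAT, 9 bases of any kind, CCACG; 0.077% of promoters) was found in none of the 5 windows. These matches describe the sequence and say nothing of binding.

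The libraries held 34072107 to 35318111 counts. HEK293T character was visible in NEFM at 59.8 to 74.3 counts scaled to a common library total (CPM), LIN28B at 8.86 to 15.7 CPM and VIM at 630 to 755 CPM, with PAX2 low at 0.991 to 2.14 CPM. Of 8 markers of other cell types, 3 (PTPRC, CD3E and PECAM1) were at 0 in all 11 libraries. Their summed level was 18.4 to 20.6 CPM with A8 and ISRIB, 17.1 to 18.9 CPM with A8, 18.6 to 19.3 CPM with ISRIB alone and 20.0 to 23.0 CPM with DMSO, most of it COL1A1 at 15.7 to 21.2 CPM, and its part in the results was not tested. The design text calls the replicates biological, and the labels do not say that they came from separate cultures, so p-values measure the spread between these libraries. CPM values, scaled here by TMM, are shares of the RNA of a culture, so a change in every cell and a larger one in some cells cannot be told apart.

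The members differed far more from each other than between treatments. Per kilobase of transcript, EIF2AK1 was the most abundant, with 39.9 CPM per kb on average (range 36.0 to 43.6 over 11 libraries). PPP1R15A followed with 16.4 CPM per kb (13.8 to 20.8), and EIF2AK4 with 13.6 CPM per kb (11.9 to 15.04), ranges that overlapped. The next levels were 6.57 CPM per kb for PPP1R15B (5.55 to 8.16), 3.04 for EIF2AK3 (2.40 to 3.42) and 1.82 for EIF2AK2 (1.59 to 1.96), and the ranges of these 3 did not overlap with each other or with those above. Lengths were those of the principal transcript in GENCODE 29. For EIF2AK2 this has 10042 nt, while the shortest coding transcript has 1533 nt, so its place at the bottom depends on which transcript the cells made. For EIF2AK4 the lengths are 5499 nt and 687 nt, so its place among the 6 depends on this too. By counts without regard to length, EIF2AK1 took 60.2% to 65.8% of the summed counts of the 4 kinases in each library.

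**Figure D1:**
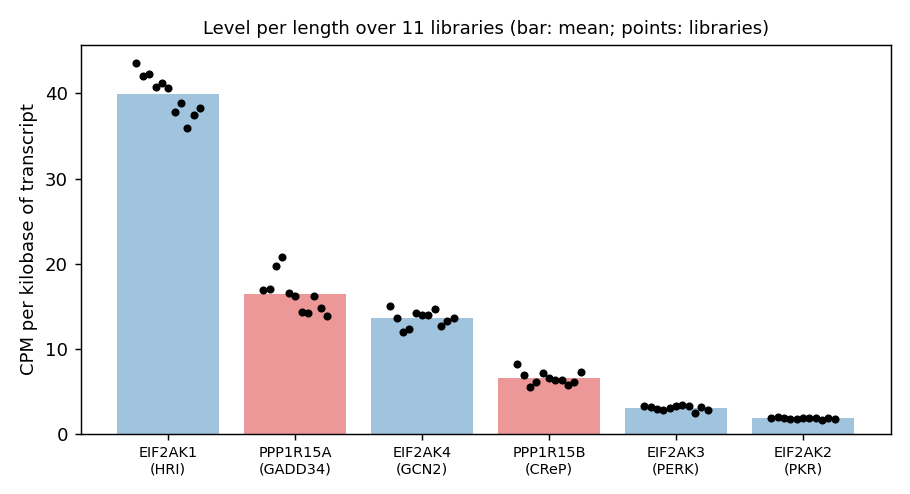
Level of each member per length of transcript, in CPM per kilobase (y axis). Bars are means over the 11 libraries and points single libraries, with kinases in blue and phosphatase subunits in red. EIF2AK1 stands at 39.9 CPM per kb and EIF2AK2 at 1.82.

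The main question was whether treatment changed these mRNAs. By edgeR's quasi-likelihood test, at an adjusted p under 0.05, none of the 6 members was called in any of the comparisons. The shares of all 15591 tested genes called in either direction were also small. They were 0.141% for A8 against DMSO, 0.0128% for A8 with ISRIB against ISRIB alone, 0.18% for A8 with ISRIB against A8, 0.0192% for A8 with ISRIB against DMSO, 0% for ISRIB against DMSO and 0.0257% for the interaction. A further comparison, of all 6 libraries with A8 against all 5 without, with equal weight for both ISRIB states, was added after the values had been seen and called 0.237% of genes, a count of 37 that ran between 10 without ISRIB library a and 103 without A8 with ISRIB replicate 3. At an unadjusted p under 0.05, 2 members stood out for A8 against DMSO (all genes 10.2%), 2 for A8 with ISRIB against ISRIB alone (8.32%), 2 for A8 with ISRIB against DMSO (7.7%), 1 for ISRIB against DMSO (9.58%), 2 for A8 averaged over ISRIB (9.81%), 0 for A8 with ISRIB against A8 (5.91%) and 0 for the interaction (8.48%). They were EIF2AK1 and PPP1R15A in each comparison with 2, and EIF2AK3 for ISRIB against DMSO. DESeq2's Wald test on the same counts called EIF2AK1 for A8 with ISRIB against DMSO, EIF2AK1 and PPP1R15A for A8 averaged over ISRIB, and no member elsewhere.

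The intervals bound what these libraries could have missed. For A8 against DMSO, the 95% intervals of the 4 kinases lay between -9.23% and 28.2%, and those of all 6 members between -12.6% and 37.6%. For A8 with ISRIB against A8 the intervals of all 6 lay between -13.0% and 23.5%. A change of any member by a factor of 2 was therefore outside the intervals of both comparisons. For the interaction they were wider, at -32.9% to 35.1%.

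EIF2AK1, the HRI gene, had the steadiest libraries and the most ordered groups. Its level was 194.7, 188.0 and 188.8 CPM in the A8 with ISRIB libraries, 182.4, 184.1 and 181.6 CPM with A8, 169.2 and 173.7 CPM with ISRIB alone, and 160.7, 167.6 and 170.9 CPM with DMSO. Every one of the 6 libraries with A8 was higher than every one of the 5 without it, and the libraries with A8 and ISRIB were all above those with A8. Among all genes, 0.622% were higher without overlap in the same split of 6 against 5. The SD of its log2 level within groups was 0.030, against a median of 0.14 over all genes. Its mean level was at percentile 93.4 of the tested genes, and its SD was not compared with genes of like level.

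The differences of EIF2AK1 were nevertheless small. The log2 value was 0.13 for A8 against DMSO (SE 0.05, adjusted p = 0.407 in edgeR), an estimate 9.80% above DMSO with an interval of 1.59% to 18.7%. The value was 0.15 for A8 with ISRIB against ISRIB alone (SE 0.06, adjusted p = 0.544 in edgeR). The largest value was 0.20 for A8 with ISRIB against DMSO (SE 0.05, adjusted p = 0.373 in edgeR), where DESeq2 gave an adjusted p of 0.0485 for the same fold change. In the authors' deposited table this comparison had a log2 fold change of 0.20 and an adjusted p of 0.390. That fit may not rest on the same set of libraries, as described below under the processing. Averaged over ISRIB the value was 0.14 (SE 0.04), with an adjusted p of 0.199 in edgeR and 0.0211 in DESeq2. In that comparison 1 of 18 alternatives called EIF2AK1.

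ISRIB gave EIF2AK1 log2 differences of 0.06 on top of A8 and of 0.04 against DMSO, both with intervals that included 0. Its exons overlap those of AIMP2 on the opposite strand. Libraries were strand-specific per the labels, but the strand setting of the counting is not given in the sources used here, so reads of the overlap cannot be told apart. AIMP2 itself had a difference of -0.06 in log2 for A8 against DMSO (adjusted p = 0.811 in edgeR).

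EIF2AK2, the PKR gene, was nearly level between A8 and DMSO. It had 18.7, 19.7 and 18.9 CPM with A8 and ISRIB, 17.5, 17.4 and 18.8 CPM with A8, 18.8 and 19.0 CPM with ISRIB alone, and 16.0, 18.1 and 17.8 CPM with DMSO. The lowest library was DMSO replicate 1, and the A8 libraries overlapped the DMSO libraries. Both groups given ISRIB lay above all DMSO libraries, by 0.14 in log2 for A8 with ISRIB (SE 0.08, adjusted p = 0.742 in edgeR) and by 0.13 for ISRIB alone (SE 0.09, adjusted p = 0.674 in edgeR), both against the same DMSO libraries. Without DMSO replicate 1 these values were 0.085 and 0.074, and with each library's trend with GC content removed, an alternative chosen after seeing the data, that of ISRIB alone was 0.024. For A8 against DMSO the log2 fold change was 0.05, with an interval of -8.53% to 17.0%. Its exons overlap those of GPATCH11 on the opposite strand, which had a difference of 0.15 in log2 for A8 against DMSO (adjusted p = 0.669 in edgeR).

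EIF2AK3, the PERK gene, was the only member whose interval for ISRIB against DMSO excluded 0. It had 15.3, 14.6 and 13.5 CPM with A8 and ISRIB, 13.2, 13.9 and 15.2 CPM with A8, 15.9 and 15.3 CPM with ISRIB alone, and 11.2, 14.6 and 12.8 CPM with DMSO. Both ISRIB libraries lay above all 3 DMSO libraries, while the other groups overlapped them. The estimate for ISRIB against DMSO was 0.28 in log2 (SE 0.12, adjusted p = 0.492 in edgeR), with an interval of 1.79% to 43.9%. Without DMSO replicate 1, the lowest of the 11 libraries, it was 0.18, and the value for A8 against DMSO, 0.13, was 0.04. Without DMSO replicate 2, the highest of its group, A8 against DMSO gave 0.23. These counts were among the smallest of the set, at 391 to 550 per library.

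EIF2AK4, the GCN2 gene, spread more within groups than between them. It had 82.7, 74.7 and 65.6 CPM with A8 and ISRIB, 67.8, 77.9 and 76.6 CPM with A8, 76.9 and 80.7 CPM with ISRIB alone, and 69.9, 72.7 and 75.1 CPM with DMSO. The highest and the lowest of all 11 libraries were both in the group with A8 and ISRIB, a span of 65.6 to 82.7 CPM, while the 4 group means lay between 72.6 and 78.8 CPM. Its log2 fold change was 0.03 for A8 against DMSO (interval -9.23% to 14.8%) and 0.01 for A8 with ISRIB against A8 (interval -10.8% to 12.9%). Both ISRIB libraries lay above the DMSO libraries, by 0.12 in log2 (SE 0.09, adjusted p = 0.681 in edgeR).

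For ISRIB against DMSO, 3 of the 6 members, all of them kinases, were higher without overlap between groups, against 13.9% of all genes in that split of 2 against 3. The matching counts were 1 of 6 for A8 against DMSO (8.47% of all genes), 2 of 6 for A8 with ISRIB against ISRIB alone (12.8%), 1 of 6 for A8 with ISRIB against A8 (5.09%) and 3 of 6 for A8 with ISRIB against DMSO (5.79%). No member was lower without overlap in any of these. The 3 comparisons against DMSO share its libraries, and their counts are not independent. For A8 against DMSO all 6 estimates were above 0, with a median log2 fold change of 0.09 beside 0.01 over all genes, where 51.8% were above 0. This did not hold under ISRIB. For A8 with ISRIB against ISRIB alone, 4 were above 0 and 2 below, EIF2AK3 at -0.11 and EIF2AK4 at -0.08. The median of the 6 there was 0.06 beside 0.002 over all genes, where 7869 of 15591 were above 0.

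**Figure D2:**
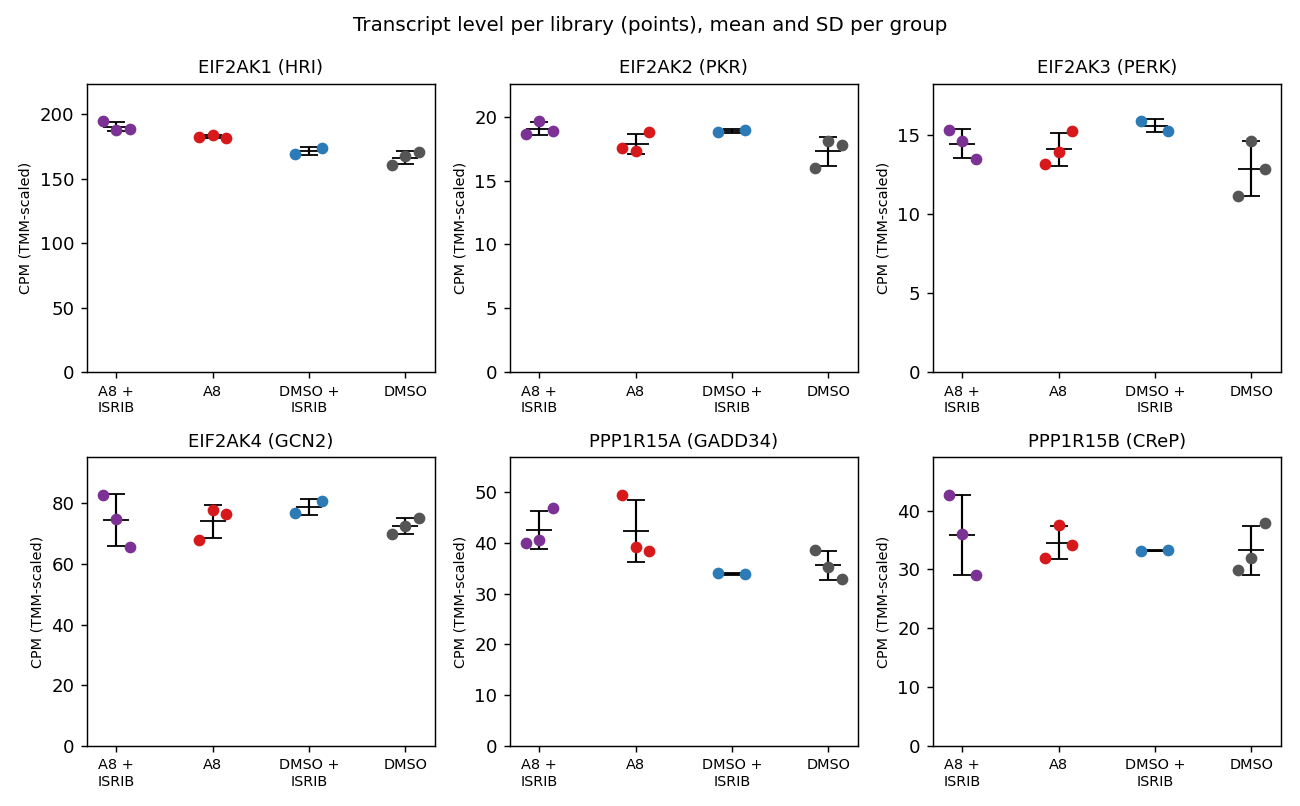
Level of each member in every library, in TMM-scaled CPM (y axis from 0, own scale per gene), by treatment group. Points are libraries, horizontal marks means and bars SD (n = 3, and 2 for ISRIB alone). For EIF2AK1 all 6 libraries with A8 lie above the 5 without, while for PPP1R15B the groups overlap in every comparison.

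PPP1R15A, the inducible subunit GADD34, had the largest estimate for A8 of all 6 members. Its level was 40.1, 40.6 and 46.9 CPM with A8 and ISRIB, 49.4, 39.3 and 38.5 CPM with A8, 34.0 and 33.8 CPM with ISRIB alone, and 38.6, 35.2 and 32.9 CPM with DMSO. All 3 libraries with A8 and ISRIB were higher than all libraries without A8. One A8 library, at 38.47 CPM, lay just under the highest DMSO library, at 38.55 CPM, so the A8 and DMSO groups overlapped by that pair.

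The log2 value of PPP1R15A was 0.25 for A8 against DMSO (SE 0.10, adjusted p = 0.398 in edgeR), with an interval of 3.37% to 37.6%. Without A8 replicate 1, the highest library, it was 0.13. For A8 with ISRIB against ISRIB alone it was 0.33 (SE 0.11, adjusted p = 0.467 in edgeR), and for A8 with ISRIB against DMSO 0.26 (SE 0.10, adjusted p = 0.545 in edgeR). On top of A8, ISRIB gave PPP1R15A a log2 difference of 0.00, with an interval of -13.0% to 15.6%.

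Averaged over ISRIB, the log2 fold change of PPP1R15A for A8 was 0.29 (SE 0.07), with an adjusted p of 0.146 in edgeR and 0.0284 in DESeq2. The adjusted p in edgeR was 0.0112 with no filter on low counts and 0.0300 with the length trend of each library removed, the trend described further on. In this comparison, which was added after the values had been seen, 3 of 18 alternatives called PPP1R15A and 15 did not. The adjusted p in edgeR reached 0.470. Whether PPP1R15A was called therefore turned on the test and its settings, while the estimate stayed between 0.23 and 0.32 in all 18 alternatives. The test of the interaction gave 0.07 (SE 0.15, adjusted p = 0.920 in edgeR). In the authors' deposited table for A8 against DMSO, PPP1R15A had a log2 fold change of 0.25 and an adjusted p of 0.800. Again, that fit may not rest on the same set of libraries, though its fold change was close to the one found here.

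PPP1R15B, the constitutive subunit CReP, had no estimate outside its error. It had 42.7, 36.1 and 29.02 CPM with A8 and ISRIB, 32.0, 37.5 and 34.2 CPM with A8, 33.1 and 33.2 CPM with ISRIB alone, and 29.9, 31.9 and 38.0 CPM with DMSO. The group with A8 and ISRIB held both its highest and its lowest library, and the groups overlapped in every comparison. Its log2 fold change was 0.05 for A8 against DMSO, with an interval of -12.6% to 23.4%, and -0.00 for ISRIB against DMSO.

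**Figure D3:**
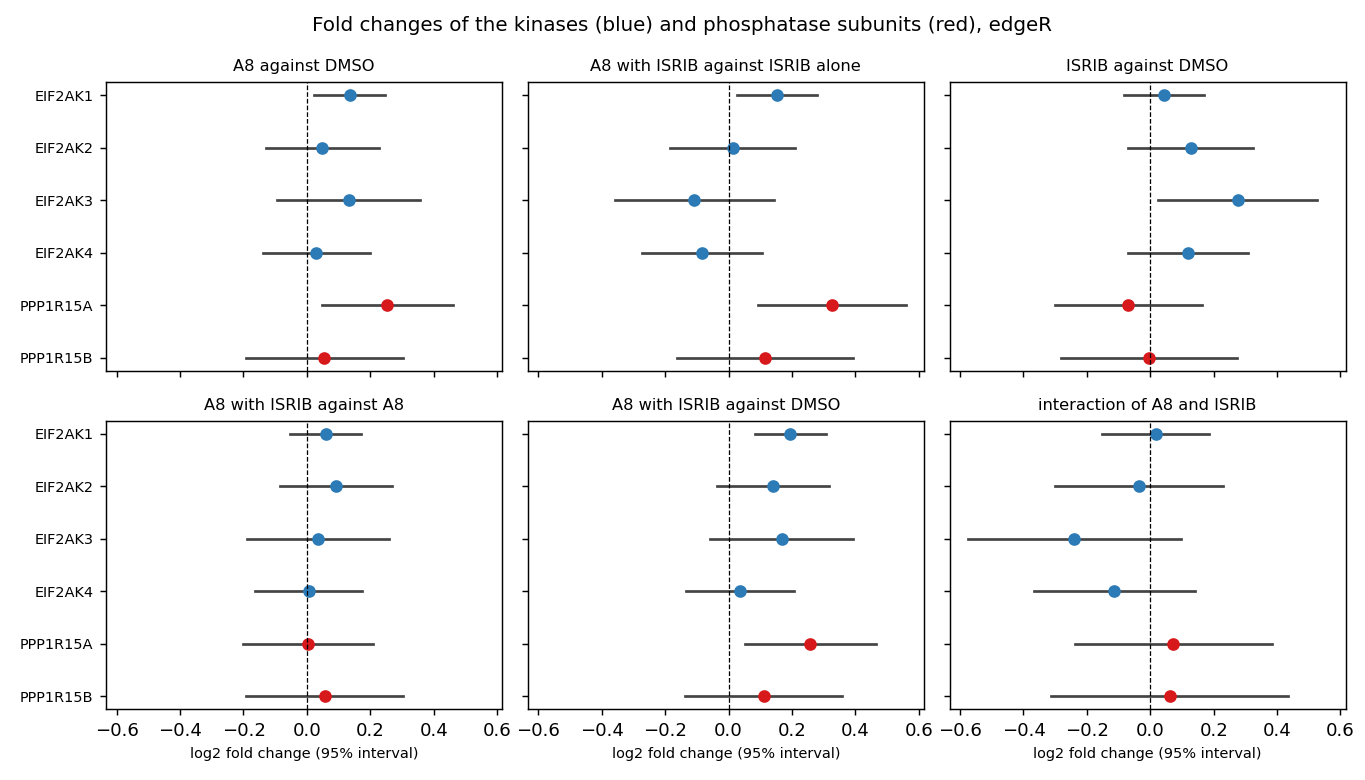
Log2 fold changes of the 6 members (points, kinases blue and phosphatase subunits red) with 95% intervals (lines) in the 5 comparisons between groups and the interaction, from edgeR. EIF2AK1 and PPP1R15A have intervals above 0 in the 3 comparisons that add A8, and EIF2AK3 in ISRIB against DMSO.

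The pair of phosphatase subunits moved in opposite ways from library to library. The ratio of PPP1R15A to PPP1R15B counts was 0.939, 1.13 and 1.62 with A8 and ISRIB, 1.54, 1.05 and 1.13 with A8, 1.03 and 1.02 with ISRIB alone, and 1.29, 1.10 and 0.867 with DMSO. The ratio thus varied more inside the groups of 3 than between group averages. Deviations from the group mean, in log2, had a Pearson correlation of -0.76 between PPP1R15A and PPP1R15B over the 11 libraries. It was 0.91 between PPP1R15B and EIF2AK4, and -0.86 between PPP1R15A and EIF2AK4.

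These deviations went with properties of the whole library. Across all genes with an annotated length, the deviation of a library from its group had a Spearman correlation with transcript length of 0.42 in A8 with ISRIB replicate 1 and -0.45 in replicate 3. It was -0.32 in A8 replicate 1 and 0.33 in A8 replicate 2, and -0.38 in DMSO replicate 1 and 0.39 in DMSO replicate 3. The 3 libraries with these negative values had the highest PPP1R15A and the lowest PPP1R15B and EIF2AK4 of their groups. PPP1R15A has the shortest transcript of the 6, at 2378 nt, against 5227 nt for PPP1R15B and 5499 nt for EIF2AK4. EIF2AK2 has the longest, at 10042 nt, and did not follow the trend in the groups with A8. Its deviations were -0.03 and -0.01 in A8 with ISRIB replicates 1 and 3, and -0.03 and -0.04 in A8 replicates 1 and 2. In DMSO replicates 1 and 3 they were -0.11 and 0.04. The correlation with transcript GC content had the opposite sign in these 6 libraries, between -0.28 and 0.35, so length and GC content cannot be told apart here as the property that went with the deviations. The 11 points of each gene share their libraries with the trend, so these correlations are descriptions.

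Removing each library's trend with length, an alternative chosen after seeing the data, lowered the SD within groups to 0.13 on the log2 scale for PPP1R15B, against 0.19 as measured, and to 0.063 for EIF2AK4, against 0.11. For PPP1R15A it was 0.12 against 0.14. For EIF2AK2, whose annotated transcript is the longest, it rose to 0.11, against 0.065. Removing the trend with GC content instead gave 0.16 for PPP1R15B, 0.10 for EIF2AK4, 0.11 for PPP1R15A and 0.061 for EIF2AK2. With the length trend removed, the estimates for A8 averaged over ISRIB stayed the same to 2 decimals for EIF2AK1, at 0.14, and for PPP1R15A, at 0.29.

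**Figure D4:**
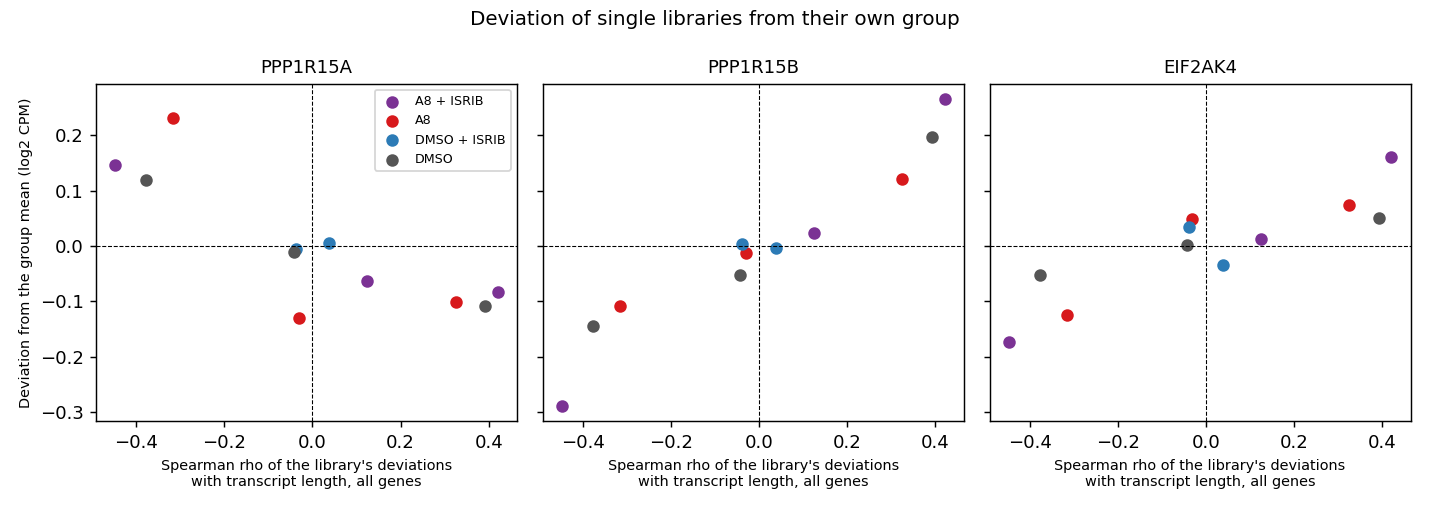
Deviation of PPP1R15A, PPP1R15B and EIF2AK4 from the group mean in each library (y axis, log2 CPM) against the Spearman correlation of that library's deviations with transcript length over all genes (x axis). Points are the 11 libraries, coloured by group. PPP1R15A falls and PPP1R15B and EIF2AK4 climb along the axis, which runs between -0.45 and 0.42.

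Around these members, lists of genes for the substrate, the exchange factor, the catalytic phosphatase, the kinase regulators, the other sensors of the endoplasmic reticulum, the upstream transcription factors and interferon-stimulated genes held 39 genes, all matched and 36 of them tested. IFIT2, OAS1 and MX1 had too few counts. In the comparisons between groups and the interaction 0 of the 36 were called by edgeR, and 9 had an unadjusted p under 0.05 for A8 against DMSO (all genes 10.2%). The 2 upstream factors had the highest median of the lists for that comparison, a log2 fold change of 0.30 beside 0.01 over all genes. Single genes of the lists ran between -0.53 and 0.64.

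ATF4, the factor translated when eIF2 is phosphorylated, had 746, 852 and 908 CPM with A8 and ISRIB, 1094, 914 and 963 CPM with A8, 638 and 696 CPM with ISRIB alone, and 897, 846 and 765 CPM with DMSO. The order of its 4 groups placed A8 alone highest and ISRIB alone lowest, which is not the order of EIF2AK1. Averaged over ISRIB, A8 gave ATF4 a difference of 0.28 in log2 (SE 0.06, adjusted p = 0.0828 in edgeR), a size close to the 0.29 of PPP1R15A, and it was called in 5 of 18 alternatives. DDIT3, which encodes CHOP, had 4.18, 4.25 and 4.13 CPM with A8 and ISRIB and 6.09, 5.47 and 5.03 CPM with A8. It had 3.55 and 3.72 CPM with ISRIB alone, and 4.39, 4.47 and 4.10 CPM with DMSO. Its log2 difference was -0.40 for A8 with ISRIB against A8 (SE 0.13, adjusted p = 0.554 in edgeR). For ISRIB against DMSO, DDIT3 had -0.25 (SE 0.14, adjusted p = 0.594 in edgeR) and ATF4 -0.33 (SE 0.10, adjusted p = 0.368 in edgeR). For A8 with ISRIB against A8, ATF4 had -0.25 and PPP1R15A 0.00 with an interval that reached -13.0%, and the difference between these genes was not tested.

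HSPA5, which encodes BiP, the chaperone that holds PERK inactive, was the 1 list gene that edgeR called, and this in the added comparison alone. It had 451, 455 and 501 CPM with A8 and ISRIB, 424, 466 and 489 CPM with A8, 590 and 595 CPM with ISRIB alone, and 530, 565 and 579 CPM with DMSO. Every library with A8 was lower than every library without it, as were 0.59% of all genes. Averaged over ISRIB the difference was -0.31 in log2 (SE 0.05, adjusted p = 0.0108 in edgeR), and 14 of 18 alternatives kept the call. It was lost without A8 with ISRIB replicate 2, without either ISRIB library or without DMSO replicate 2, with adjusted p of 0.0513 to 0.104 in edgeR and a log2 fold change of -0.31 to -0.30. EIF2AK3 had 0.01 in the same comparison, with an interval of -10.3% to 13.3%.

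DNAJC3, an inhibitor of PKR and PERK, had -0.11 in the averaged comparison (adjusted p = 0.796 in edgeR). DELE1, listed under its older symbol KIAA0141, carries the mitochondrial signal to HRI and had 0.13 (adjusted p = 0.342 in edgeR). EIF2S1, the subunit that the kinases phosphorylate, had -0.12 (adjusted p = 0.448 in edgeR), and PPP1CA, a catalytic subunit of protein phosphatase 1, had -0.03 (adjusted p = 0.861 in edgeR). Among the most abundant genes of the lists, CDC123, EIF2B2, ACTG1, HSP90AA1 and ATF6 had log2 fold changes of -0.10 to 0.09 there. Of the 7 interferon-stimulated genes tested, 3 were above 0 and 4 below in the same comparison.

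Likeness over the 11 libraries was taken as the Pearson correlation of log2 CPM among 10901 genes. The closest to EIF2AK1 were THNSL1 (0.93) and KLF10 (0.92), to EIF2AK2 ANKMY2 (0.93) and GMPS (0.92), and to EIF2AK3 TAF1B (0.95) and CDK8 (0.94). For EIF2AK4 they were TOP3A (0.97) and GLTSCR1L (0.96), for PPP1R15A UROS (0.95) and C1orf43 (0.94), and for PPP1R15B TRRAP and VPS13C (both 0.98). The members themselves were left out of the 10901 candidates. Between members, the highest correlation was 0.82, for EIF2AK2 and EIF2AK3. These points share treatment and the library trend with length, and such values are the largest of many.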

How the data were processed

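Polyadenylated RNA was sequenced on the DNBSEQ platform from strand-specific libraries with dUTP marking, per the labels' protocols. The authors deposited a table of raw counts for 27671 gene symbols in 11 libraries, and 6426 of these symbols were at 0 throughout. They also deposited tables of their own comparisons, holding log2 fold changes, p-values, a test statistic (a score) and a mean signal per gene, per the file headers. The mean signal of EIF2AK3 was 597 there, while its counts were 391 to 550 per library here. The libraries behind those fits may therefore not be the same 11. The fold changes of the members were nevertheless close to those found here in each deposited comparison. For A8 against DMSO the log2 values were 0.133 there and 0.135 here for EIF2AK1, and 0.252 and 0.254 for PPP1R15A. The build GRCh37 and the tools DESeq and DESeq2 are named in the submitters' processing notes, while the sources used here do not give the aligner, the counter, the strand setting or the annotation. Replicate 2 of the ISRIB group was left out by the submitters for quality, per the labels. Columns of that group carry other numbers than the titles, so its 2 libraries were assigned to the group only, as a and b.

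edgeR 4.0.16 in R 4.3.3 was run on the deposited counts, with filterByExpr (15591 genes kept), TMM scaling, 1 quasi-likelihood fit of the 4 groups, and Benjamini-Hochberg adjustment over all genes tested. SE and 95% intervals derive from the F statistic. The script was tested on simulated data. Those data had the same spread setting for all genes and no trend with length or GC content. That test therefore says nothing of the calls made here. Alternatives were DESeq2 1.42.0 (size factors and Wald test), no filter, at least 50 counts in 2 libraries, a robust fit, only the groups compared, a replicate block, and each library left out. Removal of GC and length trends and the comparison averaged over ISRIB were added after seeing the data. At these depths 3 counts equal 0.0849 to 0.0880 CPM, and such limits cover counting error only. Replicate numbers showed no clear pairing of the samples (same-number correlations -0.13 to 0.14). These values cannot exclude a pairing, because the libraries also differ by the trends with length and GC content.

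The members, lists and rules were chosen with earlier results of these data known. Named were every member in every comparison, list genes called in at least 1 comparison, the most abundant gene of each list, 1 of which is not reported here, and 7 fixed pathway genes. Likeness took 2 genes per member, from genes that are not members, at a mean log2 CPM of at least 2. Lengths and overlaps came from GENCODE 29 (GRCh38), another build than that of the counts, and promoters from RefSeq. A search for CCAAT boxes was also made and is not reported.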

Additional observations from a re-analysis of the deposited data

Results flagged for a closer look

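The estimates of the A8 effect on EIF2AK3 had opposite signs without and with ISRIB, each with an interval that included 0 (-6.28% to 28.2% without ISRIB and -21.9% to 10.3% with it). All 3 A8 libraries (13.2, 13.9 and 15.2 CPM) lay above the DMSO mean of 12.9 ± 1.7 CPM (SD, n = 3), and all 3 libraries with A8 and ISRIB (15.3, 14.6 and 13.5 CPM) lay below the mean of ISRIB alone, 15.6 ± 0.4 CPM (SD, n = 2). Single libraries overlapped in both pairs, since DMSO replicate 2 (14.6 CPM) was above A8 replicates 1 and 2, and A8 with ISRIB replicate 1 (15.31 CPM) was just above ISRIB library b (15.29 CPM). The difference between the 2 effects was tested as an interaction and came to -0.24 on the log2 scale (SE 0.16, unadjusted p = 0.151 and adjusted p = 0.711 in edgeR), so it did not pass. It stayed between -0.34 and -0.15 in all 18 alternatives, with adjusted p of 0.588 to 0.998. The value nearest 0 was that without DMSO replicate 1, the lowest EIF2AK3 library.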

How the results depend on the processing

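Of 822 member values under alternatives, 779 kept their direction and were not called, 5 were called and 38 changed sign, all of them from estimates whose interval included 0. The number of members called was 0 in the main setting of each comparison. With the DESeq2 Wald test it was 1 for A8 with ISRIB against DMSO and 2 for A8 averaged over ISRIB, and for that averaged comparison it was 1 with no filter and 1 with the length trend removed. The cause was not tested. Over all genes, DESeq2 called 132 for A8 against DMSO, where edgeR called 22. DESeq2 and edgeR called 51 and 0 for ISRIB against DMSO, 68 and 2 for A8 with ISRIB against ISRIB alone, 53 and 28 for A8 with ISRIB against A8, 29 and 3 for A8 with ISRIB against DMSO, 51 and 4 for the interaction, and 149 and 37 for A8 averaged over ISRIB. With no filter edgeR called 104 for A8 against DMSO and 138 for A8 averaged over ISRIB, and with the length trend removed 88 and 113. With 1 library left out, edgeR's calls ran between 14 and 50 for A8 against DMSO, 0 and 4 for ISRIB against DMSO, 0 and 13 for A8 with ISRIB against ISRIB alone, 17 and 33 for A8 with ISRIB against A8, 0 and 6 for A8 with ISRIB against DMSO, 0 and 6 for the interaction, and 10 and 103 for A8 averaged over ISRIB. The highest count came without A8 with ISRIB replicate 3, except for A8 with ISRIB against DMSO, where it came without DMSO replicate 1.

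With the GC trend removed, signs changed for EIF2AK2 in A8 against DMSO (-0.0069) and in the interaction (0.093), for EIF2AK1 in ISRIB against DMSO (-0.0047), and for PPP1R15A in ISRIB against DMSO (0.015), in A8 with ISRIB against A8 (-0.013) and in the interaction (-0.028). With the length trend removed they changed for PPP1R15A in A8 with ISRIB against A8 (-0.00077) and for EIF2AK2 in the interaction (0.0086). Leaving out 1 library in turn changed the sign of the following log2 values. For A8 against DMSO EIF2AK4 ran between -0.00789 and 0.0898, PPP1R15B between -0.0152 and 0.16 and EIF2AK2 between -0.00442 and 0.0844. For ISRIB against DMSO PPP1R15B ran between -0.075 and 0.101. For A8 with ISRIB against ISRIB alone PPP1R15B ran between -0.0268 and 0.247 and EIF2AK2 between -0.00854 and 0.0285. For A8 with ISRIB against A8 EIF2AK3 ran between -0.0114 and 0.0919, EIF2AK4 between -0.0784 and 0.0875, PPP1R15B between -0.0865 and 0.187 and PPP1R15A between -0.072 and 0.129. For A8 with ISRIB against DMSO EIF2AK4 ran between -0.0485 and 0.119 and PPP1R15B between -0.0317 and 0.244. For the interaction PPP1R15B ran between -0.0817 and 0.191, PPP1R15A between -0.00512 and 0.198, EIF2AK1 between -0.00683 and 0.0382 and EIF2AK2 between -0.0706 and 0.0155. For A8 averaged over ISRIB EIF2AK3 ran between -0.0351 and 0.0632 and EIF2AK4 between -0.0687 and 0.0152.

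A replicate block on the 9 libraries outside the ISRIB group, whose numbers showed no clear pairing, left 0 members called in its 3 comparisons. It gave 15 called genes for A8 against DMSO, against 19 without it, and 15 for A8 with ISRIB against A8, against 25, and 0 for A8 with ISRIB against DMSO, against 3. For the comparisons with ISRIB alone no paired fit was made, because its columns carry no sample number. With 1 ISRIB library left out, the other is assumed to vary like the other groups. Depth limited EIF2AK3 most, with 391 to 550 counts per library, and EIF2AK1 least, with 5632 to 6981.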
